A study of Homo sapiens with 4 samples.

Results

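Iron storage, uptake and export were described by 10 genes, taken by symbol from the filtered count table: *FTH1*, *FTL* and *NCOA4* (storage), *TFRC*, *STEAP3* and *SLC11A2* (uptake), *SLC40A1* (export), *ACO1* and *IREB2* (regulators) and *GPX4* (repair of oxidized lipids). All 10 were among the 18449 symbols of the table and among the 18066 genes that were tested. The libraries came from BT-16 and CHLA-266, established cell lines of atypical teratoid/rhabdoid tumor (AT/RT) of the MYC subtype, a malignant brain tumor of early childhood. Each cell line gave 1 untreated library and 1 library of cells that had received 1 µM doxorubicin, 5 µM etoposide and 1 µM vincristine on consecutive days and had then regrown. Doxorubicin and etoposide block topoisomerase II, and vincristine blocks microtubule assembly. All 4 libraries carried the same batch label, and the comparison asked how cells that outlived chemotherapy differed from untreated cells. Each condition thus held 2 libraries from 2 cell lines, nothing gives them as repeated cultures, and *p* values measure only the spread between these libraries. The medium of all groups contained fetal bovine serum, insulin, transferrin and selenous acid, so that iron carrier and selenium were supplied in every group.

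Cells take up iron mainly as transferrin bound to the transferrin receptor (*TFRC*), reduce it in the endosome with *STEAP3*, and pass it to the cytosol through the divalent metal transporter (*SLC11A2*). Iron that is not used is stored in ferritin, a shell of heavy (*FTH1*) and light (*FTL*) chains, from which *NCOA4* delivers it to lysosomes for release, and surplus iron leaves the cell through ferroportin (*SLC40A1*). When iron is scarce, the iron regulatory proteins (*ACO1*, *IREB2*) bind hairpins called iron-responsive elements (IREs) and thereby block translation where the hairpin lies in the 5′ UTR and stabilize the mRNA where it lies in the 3′ UTR of *TFRC*. Much of this control is therefore exerted on translation, which RNA counts do not measure. Free iron drives the oxidation of membrane lipids, and the selenoprotein GPX4 reduces the lipid peroxides whose build-up leads to ferroptosis.

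The hairpins are shown because they link storage, uptake and export genes to the same regulators. They were searched in the MANE Select transcripts of GENCODE 44 (hg38), on the strand of the transcript, as C, any 5 bases, a loop of 6 bases (CAGTGN, with a last base other than G) and 5 bases that pair with the 5 before the loop, G-T pairs included. Of 18763 transcripts with a 5′ UTR, 11 (0.059%) held such a match, as did 97 of 18780 (0.517%) with a 3′ UTR. Each sequence reads 5′ to 3′ with the loop in capitals. Sequences and coordinates span 29 bases, namely the match and 6 bases on either side of it. The 5′ UTR matches lay within chr11:61967574-61967602 on the minus strand (*FTH1*), chr19:48965335-48965363 on the plus strand (*FTL*) and chr2:189580661-189580689 on the minus strand (*SLC40A1*).
FTH1: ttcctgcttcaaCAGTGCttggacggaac
FTL: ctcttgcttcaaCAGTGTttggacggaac
SLC40A1: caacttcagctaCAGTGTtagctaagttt
The 3′ UTR of *TFRC* held 4 matches on the minus strand, in transcript order within chr3:196050979-196051007, chr3:196050575-196050603, chr3:196050510-196050538 and chr3:196050463-196050491.
TFRC, the first match: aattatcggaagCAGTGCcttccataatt
TFRC, the second match: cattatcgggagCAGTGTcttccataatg
TFRC, the third match: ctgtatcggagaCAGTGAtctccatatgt
TFRC, the fourth match: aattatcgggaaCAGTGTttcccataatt
Each match lay within 1 exon, and a match is a description of the letters, not of binding. The MANE Select transcripts of the other members held no match. The pattern can miss elements, since it also found none in *EPAS1* and *CDC42BPA*, which have a described IRE. A member without a match is thus not shown to lack an IRE.

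The libraries held 49849257 to 75087193 counts, with fewer counts in both treated libraries than in either untreated one. *SMARCB1*, whose loss defines most AT/RT, still had 827 to 1394 counts in each library. *MYC* had 6804 to 14275 counts and was downregulated in treated cells (log2 difference -0.59, adjusted *p* = 0.0289 in edgeR). *VIM* had 73439 to 120804 counts and did not pass (log2 difference 0.04, adjusted *p* = 0.920 in edgeR). The proliferation marker *MKI67* fell from 109853 counts to 1262 in BT-16 and from 96814 to 1386 in CHLA-266, and all 7 proliferation markers examined were downregulated. The authors describe the treated cells as having grown again, and how these low levels relate to that regrowth was not tested. Differences below are treated relative to untreated cells and were tested with edgeR (quasi-likelihood test after TMM normalization, with *p* values adjusted over all 18066 genes and a threshold of 0.05). A log2 difference of 1 is a doubling. In bulk RNA, fewer cells that express a gene and less RNA per cell cannot be told apart.

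The ferritin chains were upregulated, whereas *STEAP3*, *SLC11A2* and *GPX4* were downregulated in treated cells. Thus 2 members were upregulated and 3 downregulated, and 5 did not pass the threshold (*NCOA4*, *TFRC*, *SLC40A1*, *ACO1*, *IREB2*). Of all genes tested, 35.2% passed, namely 16.1% as upregulated and 19.1% as downregulated, and the members were not tested as a group against this background. The median log2 difference was -0.11 over the members and 0.24 over all genes. The latter rested in part on genes with few counts. It was 0.005 among genes of at least 10 counts in every library, a limit that 9 members met. The log2 differences of these members were higher in that fit as well. When the cell line entered as a replicate block, 2 members were upregulated and 4 downregulated beside 41.6% of all genes, the added member being *IREB2*. The normalized levels of treated and untreated cells did not overlap in 8 of 10 members and in 72.6% of all genes.

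**Figure D1:**
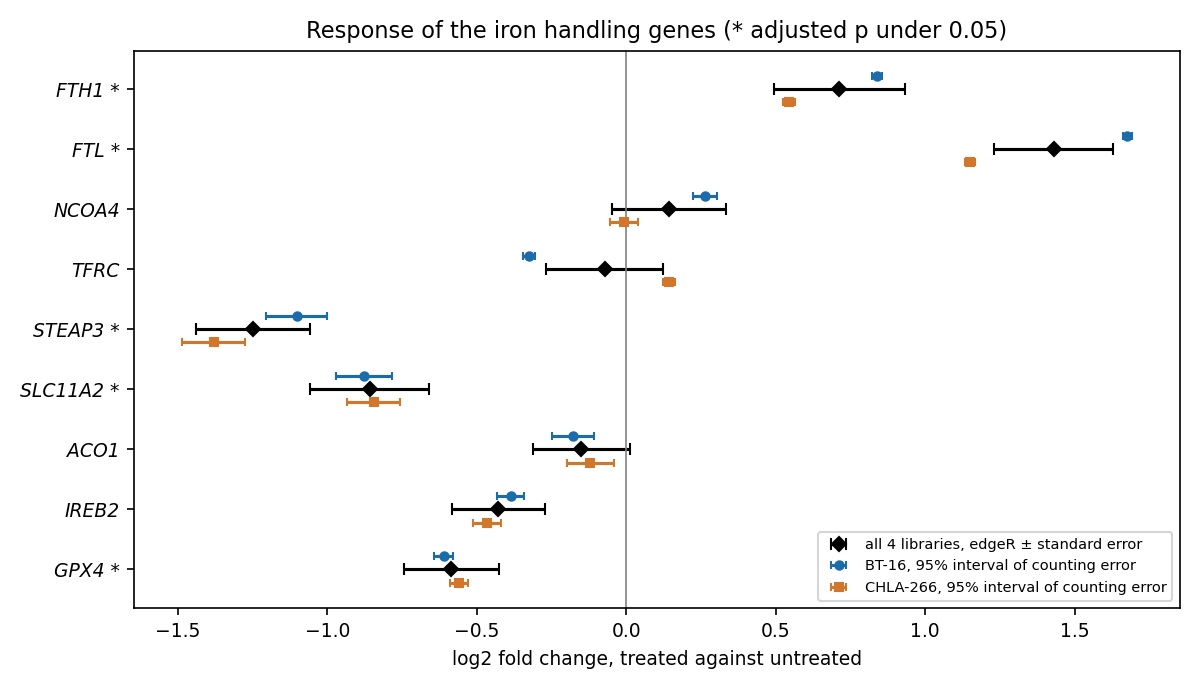
Log2 fold change of treated against untreated cells (x axis) for 9 members, *SLC40A1* being left out for its few counts. Diamonds are the edgeR estimate from 4 libraries with its standard error, circles and squares the log2 ratio within BT-16 and within CHLA-266 (1 library per condition, bars are 95% intervals of counting error), and asterisks mark adjusted *p* values under 0.05. *FTL* and *FTH1* lie to the right of 0 in both cell lines, and *STEAP3*, *SLC11A2*, *IREB2*, *GPX4* and, by less, *ACO1* to the left. *TFRC* has a different sign in each cell line.

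Levels between genes were compared as CPM (counts scaled to a common library size) per kilobase of the MANE Select transcript. In untreated cells, *FTL* (759 in BT-16, 803 in CHLA-266) and *FTH1* (603 and 502) ranked highest on this scale, followed by *GPX4* (423 and 440) and *TFRC* (139 and 140). *NCOA4* (40.9 and 36.2) and *IREB2* (22.2 and 24.6) came next, then *SLC11A2* (10.4 and 12.7) and *STEAP3* (9.24 and 11.4), whose ranges overlapped, and *ACO1* (7.33 and 6.62). *SLC40A1* was lowest, with less than a single CPM per kilobase in every library. Treated cells kept this order down to *IREB2*, below which *SLC11A2* (5.66 and 7.08) and *ACO1* (6.49 and 6.09) overlapped and *STEAP3* (4.31 and 4.37) followed.

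**Figure D2:**
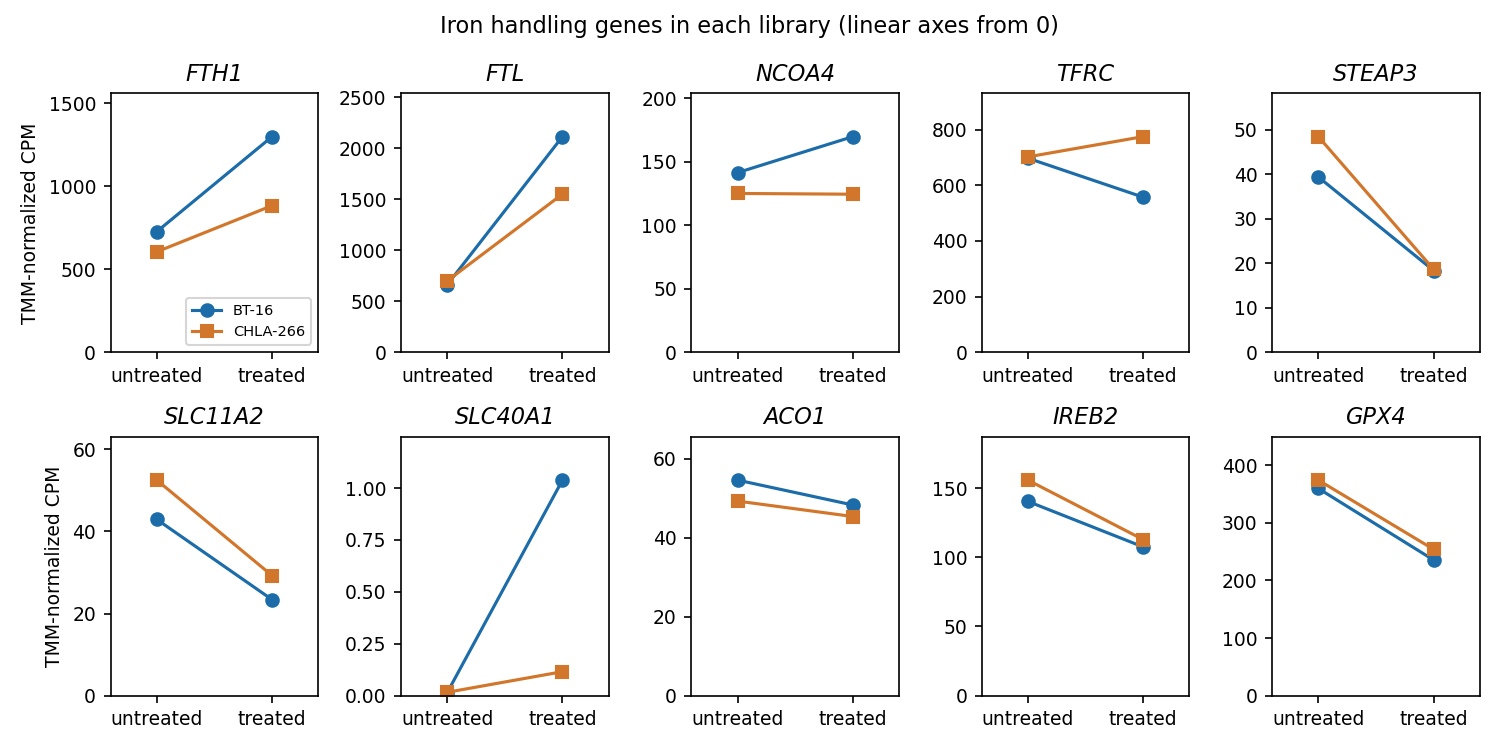
TMM-normalized CPM of each member (y axes linear from 0, each panel with its own range) in untreated and treated cells, with circles for BT-16 and squares for CHLA-266 and 1 library per point. *FTL* and *FTH1* are higher and *STEAP3*, *SLC11A2*, *IREB2*, *GPX4* and *ACO1* lower in the treated library of both cell lines, and *SLC40A1* reaches 1.04 CPM at most.

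*FTL*, the light chain of ferritin (ENSG00000087086, chr19:48965309-48966879, plus strand), was at 661 CPM in BT-16 cells before treatment and at 2116 CPM thereafter, and at 699 and 1552 CPM in CHLA-266 cells. Both treated libraries were thus above both untreated ones. Expression increased by 1.43 on the log2 scale (SE 0.20, n = 2 per condition, 2.70-fold, adjusted *p* = 0.00117 in edgeR). *FTL* passed under all 9 other settings and when any 1 library was left out. Per transcript length, its rank among 17790 genes went from 78 to 3 in BT-16 and from 62 to 8 in CHLA-266. Within the cell lines the log2 ratio was 1.68 in BT-16 (95% counting interval 1.66 to 1.69) and 1.15 in CHLA-266 (1.13 to 1.17).

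*FTH1*, the heavy chain with the ferroxidase activity that loads iron into the shell (ENSG00000167996, chr11:61959718-61967634, minus strand), was at 726 CPM in BT-16 cells before treatment and at 1298 CPM thereafter. In CHLA-266 the levels were 604 and 882 CPM. Here too both treated libraries were above the untreated ones, but the treated libraries lay farther apart. The increase was 0.71 on the log2 scale (SE 0.22, 1.64-fold, adjusted *p* = 0.0350 in edgeR, and 0.000401 in the blocked fit). The call was lost when untreated BT-16 (adjusted *p* = 0.0578), untreated CHLA-266 (0.159) or treated BT-16 (0.137) was left out of the edgeR fit, with log2 differences between 0.41 and 0.85. The annotation holds 25 pseudogene copies of *FTH1* and 16 of *FTL*, and counts of these genes are uncertain by the reads that such copies share with them.

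The balance of the chains was read within each library, where no normalization enters. The counts of *FTH1* per count of *FTL* were 1.10 before treatment and 0.614 thereafter in BT-16, and went from 0.864 to 0.569 in CHLA-266. Light chain counts therefore exceeded heavy chain counts in 3 of 4 libraries, and per transcript length in all 4 (ratios of 0.412 to 0.795). On the log2 scale, the ratio fell by 0.84 in BT-16 and by 0.60 in CHLA-266. The exact two-sided permutation test over the 4 libraries gave *p* = 0.333, the smallest value it can give with 2 libraries per condition.

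**Figure D3:**
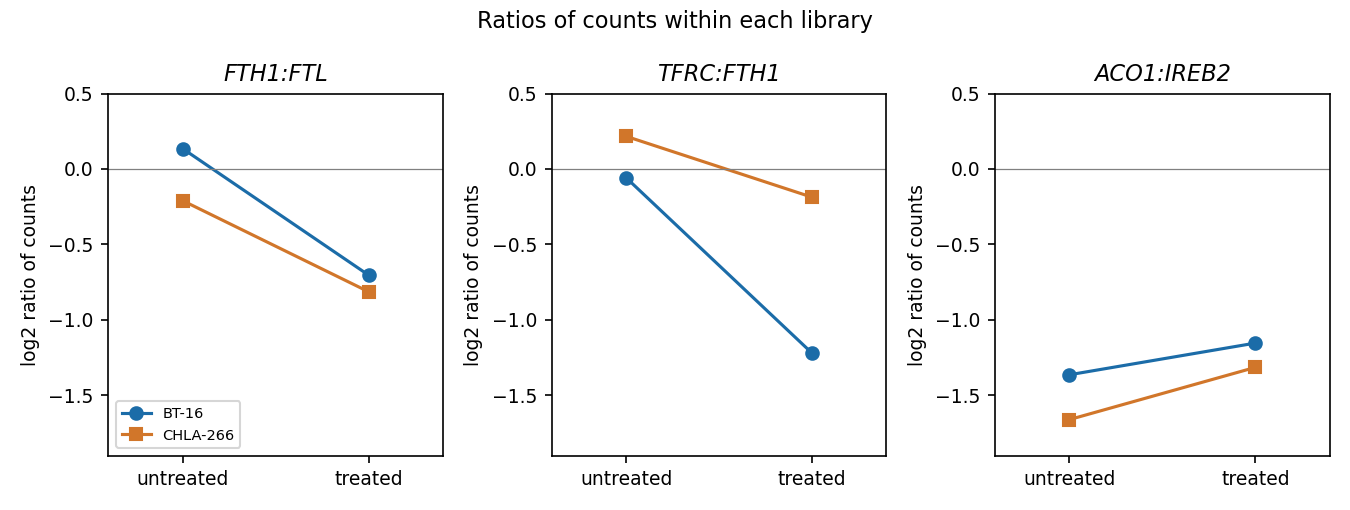
Log2 ratio of the counts of *FTH1* to *FTL*, *TFRC* to *FTH1* and *ACO1* to *IREB2* (y axes) within each library, with the untreated and treated library of a cell line joined by a line, circles for BT-16 and squares for CHLA-266. The first and second ratio are lower and the third is higher in the treated library of both cell lines.

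*NCOA4*, the receptor that carries ferritin to lysosomes (ENSG00000266412, chr10:46005088-46030623, minus strand), was not among the upregulated genes. Its level was 142 CPM before treatment and 170 CPM thereafter in BT-16, and 125 CPM in both conditions in CHLA-266. The conditions overlapped. Its log2 difference of 0.14 (SE 0.19) did not pass (adjusted *p* = 0.567 in edgeR), and the log2 ratio was 0.26 (0.22 to 0.30) in BT-16 but -0.01 (-0.06 to 0.04) in CHLA-266. The sign of the fit turned to -0.10 without treated BT-16. The annotation holds 4 pseudogene copies of this gene.

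Of the uptake genes, the ferrireductase *STEAP3* (ENSG00000115107, chr2:119223831-119265652, plus strand) was at 39.4 CPM in BT-16 cells before treatment and at 18.3 CPM thereafter. In CHLA-266 its levels were 48.4 and 18.6 CPM. The treated libraries were nearly equal and both were below the untreated ones. The decrease, with a log2 difference of -1.25 (SE 0.19, 2.38-fold lower, adjusted *p* = 0.00182 in edgeR), was the largest among the members. It passed under all 9 other settings and without any 1 library.

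*SLC11A2*, which moves ferrous iron out of the endosome (ENSG00000110911, chr12:50979401-51028566, minus strand), was at 42.9 CPM in untreated BT-16 cells and at 23.4 CPM in the treated ones. In CHLA-266 cells the levels were 52.5 and 29.3 CPM. Both treated libraries were below both untreated ones, and the log2 ratios within the cell lines were nearly equal (-0.88 in BT-16 and -0.84 in CHLA-266). In edgeR, the log2 difference was -0.86 (SE 0.20, 1.81-fold lower, adjusted *p* = 0.0114). The call was lost without untreated CHLA-266 (log2 difference -0.71, adjusted *p* = 0.0755 in edgeR) and under upper-quartile normalization (-0.52, 0.0675).

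*TFRC*, the receptor itself (ENSG00000072274, chr3:196012511-196082153, minus strand), was at 697 CPM in untreated BT-16 cells and at 557 CPM in the treated ones, and at 702 and 775 CPM in CHLA-266 cells. The untreated levels were nearly equal, and the treated level was below them in one cell line and above them in the other. The log2 difference was -0.07 (SE 0.20, adjusted *p* = 0.787 in edgeR). Its sign depended on the scaling, with 0.15 from library totals, 0.27 under upper-quartile normalization and 0.11 among genes of at least 10 counts in every library, and it did not pass under any setting. Set against *FTH1* within each library, where scaling does not enter, *TFRC* counts per *FTH1* count went from 0.961 to 0.429 in BT-16 and from 1.16 to 0.878 in CHLA-266. This ratio of receptor to ferritin was lower in the treated library of both cell lines, by 1.16 and 0.40 on the log2 scale (exact two-sided permutation *p* = 0.333, the smallest possible).

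*SLC40A1*, the only known iron exporter (ENSG00000138449, chr2:189560590-189583758, minus strand), had a count of 1 before treatment and of 60 thereafter in BT-16, and counts of 1 and 6 in CHLA-266. It was thus hardly detected, and both untreated libraries were under the limit of 3 counts that a count of 0 allows. The log2 ratio was 5.59 in BT-16 (95% counting interval 3.63 to 11.5) and 2.36 in CHLA-266 (-0.21 to 8.35, which includes 0). It did not pass in edgeR (adjusted *p* = 0.0538), but did with DESeq2 (0.0162), library totals (0.0496), upper-quartile normalization (0.0433) and without treated CHLA-266 (0.0240), while the block gave 0.144. For comparison, 325 olfactory receptor genes, which such cells should not use, had a median of 0 counts per kilobase in both untreated libraries but 4.99 in treated BT-16 and 2.13 in treated CHLA-266 cells. *SLC40A1* had 18.0 and 1.80 counts per kilobase in the treated libraries, under the 95th percentile of the olfactory receptor genes (35.3 and 24.6), and its level is thus within that background. The other members had at least 227 counts per kilobase in every library.

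Neither regulator passed the threshold. *ACO1*, which is iron regulatory protein 1 or, with an iron-sulfur cluster, cytosolic aconitase (ENSG00000122729, chr9:32384603-32454769, plus strand), went from 54.6 to 48.3 CPM in BT-16 cells and from 49.3 to 45.4 CPM in CHLA-266 cells. This log2 difference of -0.15 was within the spread (SE 0.16, adjusted *p* = 0.480 in edgeR), and its sign turned with library totals (0.08), upper-quartile normalization (0.20) and a minimum of 10 counts in every library (0.03). *IREB2*, iron regulatory protein 2, which is degraded in iron-replete cells (ENSG00000136381, chr15:78437431-78501453, plus strand), went from 140 to 107 CPM in BT-16 cells and from 156 to 113 CPM in CHLA-266 cells. Both treated libraries were lower, with a log2 difference of -0.43 (SE 0.16) that did not pass in edgeR (adjusted *p* = 0.0622) but did in the blocked fit (0.0187). That fit was the only 1 of the 9 other settings in which it passed. The log2 difference of *IREB2* shrank to -0.08 under upper-quartile normalization, -0.20 with library totals and -0.25 among genes of at least 10 counts in every library. *ACO1* counts per *IREB2* count went from 0.389 to 0.449 in BT-16 and from 0.316 to 0.402 in CHLA-266, a log2 increase of 0.21 and 0.35 (exact two-sided permutation *p* = 0.333, the smallest possible).

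*GPX4* (ENSG00000167468, chr19:1103982-1106791, plus strand) was at 360 CPM in untreated BT-16 cells and at 236 CPM in the treated ones, and at 374 and 254 CPM in CHLA-266 cells. Both treated libraries were below both untreated ones by a similar log2 ratio (-0.61 and -0.56). The log2 difference was -0.58 (SE 0.16, 1.50-fold lower, adjusted *p* = 0.0216 in edgeR). Its sign held under all 9 other settings, but the call was lost under upper-quartile normalization (-0.24, adjusted *p* = 0.236 in edgeR), library totals (-0.36, 0.0831) and a minimum of 10 counts in every library (-0.40, 0.0604). It was also lost without untreated BT-16 (0.0730), untreated CHLA-266 (0.0980) or treated BT-16 (0.0552).

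**Figure D4:**
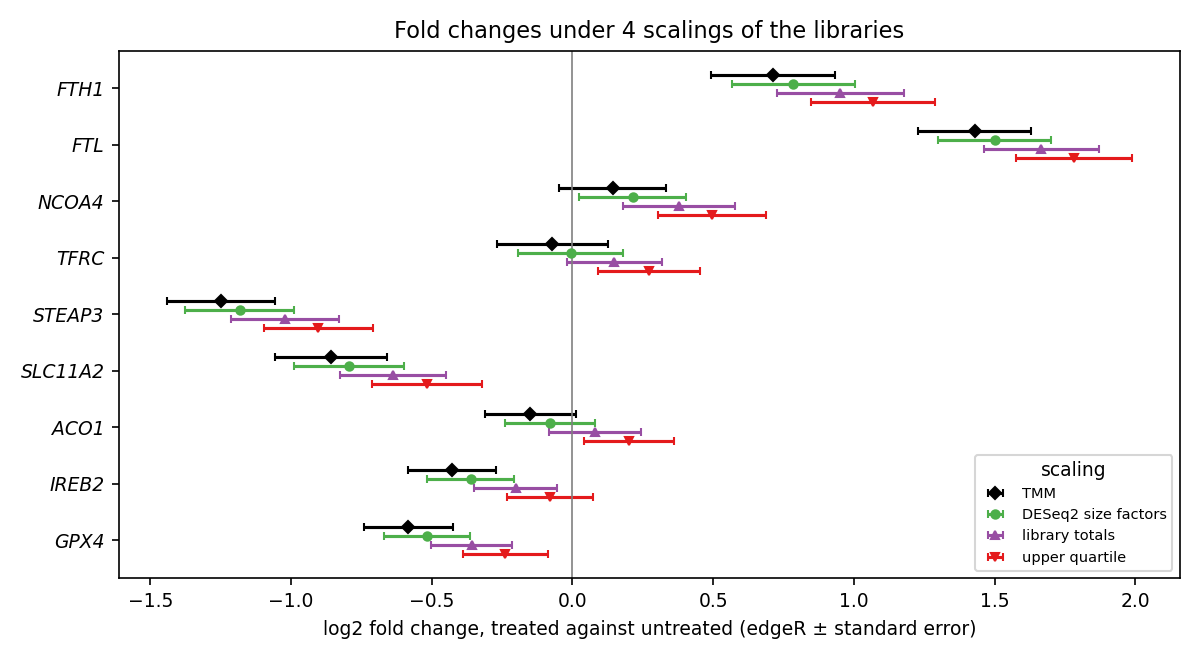
Log2 fold change of 9 members (x axis, edgeR estimate with its standard error) under 4 scalings of the libraries, with *SLC40A1* left out for its few counts. The values of *FTL*, *FTH1*, *STEAP3*, *SLC11A2* and *GPX4* stay on their side of 0, whereas those of *TFRC* and *ACO1* cross it.

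The scaling shifts all genes together. The median log2 difference over all genes was 0.24 after TMM normalization, 0.31 with DESeq2 size factors, 0.47 with library totals and 0.59 under upper-quartile normalization. Filters moved it too, to 0.11 with the expression filter of edgeR (filterByExpr) and 0.005 with at least 10 counts in every library. Of the genes past the threshold in edgeR, 45.7% were upregulated after TMM normalization, beside 61.0% with library totals and 69.7% under upper-quartile normalization.

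Between the cell lines, 0 members passed the threshold (CHLA-266 relative to BT-16, with the condition in the edgeR model), beside 2.30% of all genes. Unadjusted *p* values under 0.05 were given by 2 members in edgeR, *FTH1* (log2 difference -0.41, SE 0.15, adjusted *p* = 0.220) and *NCOA4* (-0.31, SE 0.15, adjusted *p* = 0.455), both lower in CHLA-266, and 0 members passed in DESeq2. With library totals, *FTH1* passed (-0.46, adjusted *p* = 0.0161 in edgeR). Whether the response to treatment differed between the cell lines was not tested, since each had 1 library per condition.

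Other genes of the pathway were grouped by role, in lists that do not hold the members. The counts in these and in the cell type lists stand beside 16.1% upregulated and 19.1% downregulated of all genes tested. No list was tested as a group. Of 26 genes of iron transport and systemic regulation, 8 were upregulated, 4 downregulated and 14 neither, with a median log2 difference of 1.21 beside 0.24 over all genes. That median rested on genes with few counts and on 1 library, being 0.35 among genes of at least 10 counts in every library and 0.29 without treated BT-16. Changes of single genes are given on the log2 scale with the adjusted *p* value of edgeR in parentheses. Among the upregulated genes, *MCOLN1*, a lysosomal cation channel that passes iron, rose from 19.0 to 40.2 CPM in BT-16 and from 17.5 to 36.4 in CHLA-266 (log2 difference 1.07, adjusted *p* = 0.00333 in edgeR). *BMP6*, the signal that induces hepcidin, rose by 1.84 on the log2 scale (0.00838), the counts going from 145 to 339 (BT-16) and from 106 to 406 (CHLA-266). *TF*, the gene of transferrin, went from 20 counts to 176 in BT-16 cells and from 4 to 143 in CHLA-266 cells (log2 difference 4.00, 0.00649). *SCARA5*, a ferritin receptor, went from 3 counts to 80 in BT-16 cells and from 0 to 77 in CHLA-266 cells (0.00821), both untreated libraries being at or under the limit of 3 counts. The other upregulated genes were *HFE*, *TFR2*, *SLC39A8* and *LCN2*, of which *LCN2* (1 and 60 counts in BT-16, 0 and 6 in CHLA-266) lost its call in the blocked fit (adjusted *p* = 0.0730 in edgeR), leaving 7.

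Several genes of this list had few counts, as did most markers of other cell types, of which some were upregulated as well. Of 12 macrophage markers, 4 were upregulated, and their summed level was 3.82 to 6.77 CPM in untreated and 11.1 to 13.5 in treated cells, *PTPRC* having the highest single count (287, in untreated BT-16), while *C1QC* and *AIF1* were at 0 in both untreated libraries. Of 10 hepatocyte markers, which matter for *TF* as a liver gene, 2 were upregulated, with sums of 0.309 to 0.638 and 3.35 to 4.83 CPM, *SERPINA1* having the highest single count and *ALB* being at 0 in both untreated libraries. Of 11 erythroid markers tested, 2 were upregulated, with sums of 6.21 to 9.92 and 10.6 to 17.2 CPM, *EPOR* having the highest single count, while *HBB* was at 0 in all but treated BT-16 cells. Of 10 fibroblast markers, 2 were upregulated and 1 downregulated, with overlapping sums of 11.1 to 14.9 and 13.1 to 24.6 CPM, *COL1A1* having the highest single count and *COL3A1* at 0 in both untreated libraries. Their part in the results for *SLC40A1*, *TF* and *SCARA5* was not tested.

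Among the downregulated genes of iron transport, *PCBP1*, an iron chaperone that loads ferritin, fell by 1.52 on the log2 scale (adjusted *p* = 0.00243 in edgeR), the counts going from 2040 to 550 (BT-16) and from 1330 to 434 (CHLA-266). Its relative *PCBP2* fell by 0.70 (0.00948), and *FBXL5*, the ligase subunit that marks IREB2 for degradation when iron is plentiful, fell by 0.67 (0.0123). The calls of both ended under upper-quartile normalization (-0.35 and -0.32), and that of *FBXL5* also with library totals (-0.44) and without untreated CHLA-266 (-0.66). *ERFE*, a suppressor of hepcidin, fell by 2.57 (0.00650). *SLC39A14*, a metal importer and the most abundant gene of the list, did not pass (-0.22, 0.390).

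Of 19 genes of heme synthesis, transport and breakdown, 4 were upregulated, 5 downregulated and 10 neither (median log2 difference 0.19). That median ran from 0.09 without treated BT-16 to 0.54 under upper-quartile normalization. *HMOX1*, the heme oxygenase that frees iron from heme, rose from 2550 counts to 20971 in BT-16 cells and from 1959 to 17950 in CHLA-266 cells, by 3.36 on the log2 scale (10.3-fold, adjusted *p* = 5.22e-06 in edgeR). *HEBP1*, a heme-binding protein, rose by 1.33 (0.00129), *ALAS1*, the first enzyme of heme synthesis, by 0.91 (0.00308) and *FECH*, which inserts iron in the last step, by 0.47 (0.0435). The call of *FECH* was lost whichever library was left out (0.40 to 0.54). Of the enzymes between the first and last steps, *CPOX* fell by 1.06 (0.00424) and *UROS* by 0.57 (0.0213), as did the heme exporter *FLVCR1* by 1.79 (0.000523) and the mitochondrial transporter *ABCB10* by 1.05 (0.00234).

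Of 24 genes of iron-sulfur cluster assembly, 0 were upregulated, 12 were downregulated and 12 were neither in edgeR, with a median log2 difference of -0.61. Upregulated genes also numbered 0 at an unadjusted *p* under 0.05 in edgeR and 0 in DESeq2. *BOLA3*, which helps to hand clusters to lipoate synthesis, fell by 1.58 (adjusted *p* = 0.000602 in edgeR) and *GLRX5*, which relays mitochondrial clusters, by 1.08 (0.00485). The cytosolic factors *NUBP2* and *GLRX3* fell by 1.35 (0.00231) and 0.90 (0.00469). Under upper-quartile normalization, 5 genes of the list were downregulated and the median was -0.26. It was -0.38 with library totals and -0.42 among genes of at least 10 counts in every library.

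Of 23 genes of glutathione synthesis and ferroptosis, 7 were upregulated, 4 downregulated and 12 neither (median log2 difference 0.14). The median was 0.36 with library totals and 0.49 under upper-quartile normalization. The subunits of the enzyme that limits glutathione synthesis rose together, *GCLC* from 31.7 to 240 CPM in BT-16 and from 32.9 to 269 in CHLA-266 (log2 difference 2.98, adjusted *p* = 7.20e-06 in edgeR) and *GCLM* by 1.25 on the log2 scale (0.000728). *SLC7A11*, the cystine importer that feeds this synthesis, rose by 0.83 (0.00849) and the reductase *CYB5R1* by 0.82 (0.00782). *GPX4*, which uses the glutathione made in this way, was lower in the same libraries, as given above. *MBOAT1*, a phospholipid acyltransferase, fell by 2.70 (0.00501), *FDFT1*, the squalene synthase, by 1.45 (0.00579, and by 0.88 without untreated BT-16), *DHODH*, which reduces ubiquinone in mitochondria, by 0.94 (0.00911) and *CISD1*, an iron-sulfur protein of the outer mitochondrial membrane, by 0.85 (0.00753). The call of *SLC7A11* was lost without untreated CHLA-266 (0.76) and that of *CISD1* under upper-quartile normalization (-0.50).

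Of 19 genes of selenoprotein synthesis and relatives of *GPX4*, 1 was upregulated, 7 were downregulated and 11 were neither (median log2 difference -0.40). The upregulated gene was *TXNRD1*, the cytosolic thioredoxin reductase, at 1.10 on the log2 scale (adjusted *p* = 0.00988 in edgeR). *SECISBP2* and *EEFSEC*, which place selenocysteine during translation, fell by 1.05 (0.00232) and 1.13 (0.0145). The glutathione peroxidases *GPX1* and *GPX8* fell by 1.01 (0.00645) and 1.14 (0.00456), of which *GPX8* is no selenoprotein. With library totals, 4 of the list were downregulated (median -0.17), and under upper-quartile normalization 3 (median -0.05). Without untreated BT-16, the calls of *TXNRD1* (0.83) and *EEFSEC* (-0.98) were lost.

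Of 4 other mRNAs with a described IRE, *EPAS1*, the hypoxia-inducible factor HIF2A, was upregulated, from 189 counts to 805 in BT-16 cells and from 137 to 838 in CHLA-266 cells (log2 difference 2.60, adjusted *p* = 0.000510 in edgeR). *CDC42BPA*, the most abundant of them that did not pass, had a log2 difference of -0.25 (0.294).

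**Figure D5:**
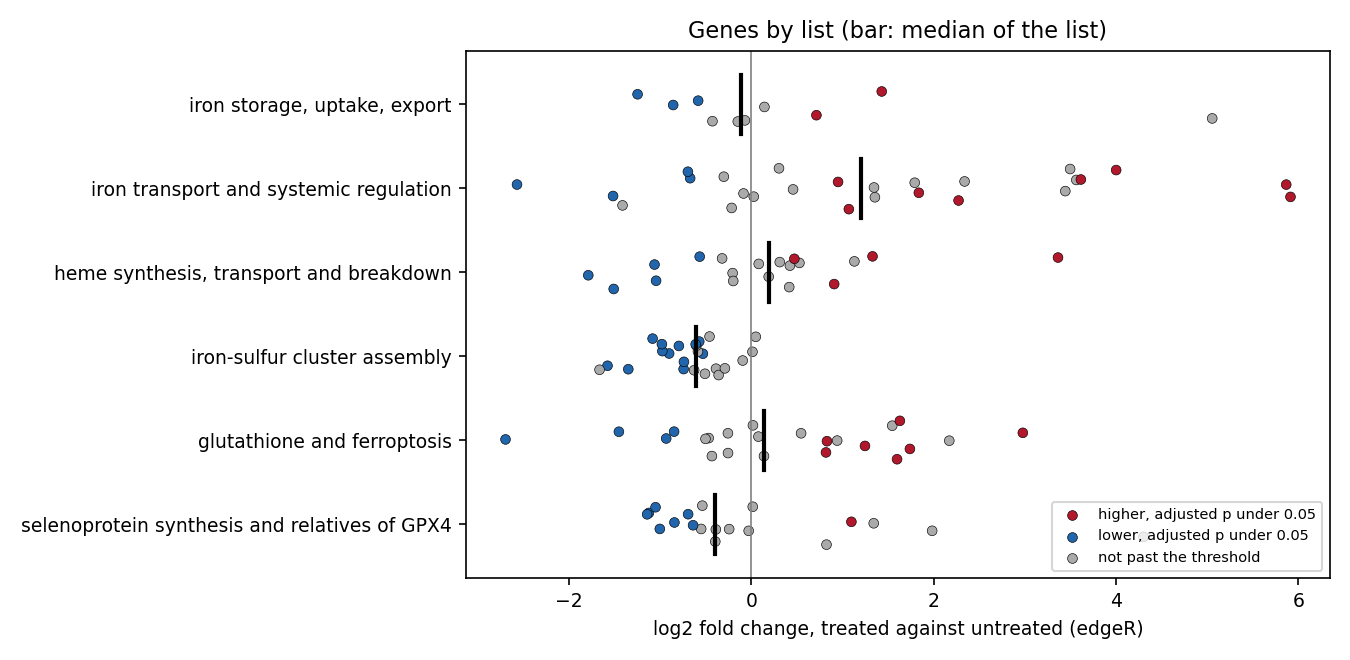
Log2 fold change of treated against untreated cells (x axis, edgeR) of each gene of the members and of 5 pathway lists, with 1 point per gene, in red and blue where higher or lower with an adjusted *p* value under 0.05 and grey otherwise, and a bar at the median of each list. No gene of iron-sulfur cluster assembly is red, and the points of *HMOX1* (3.36) and *GCLC* (2.98) are red in their lists.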

How the data were processed

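Bulk RNA of 4 libraries was sequenced from 10 ng of total RNA with a stranded kit. Per the labels and methods, the authors demultiplexed with bcl2fastq 2.20, trimmed with Skewer, aligned to hg38 with STAR and deposited estimated counts per gene symbol without normalization, of which 5 were not whole and were rounded, and log2 values from the variance-stabilizing transformation of DESeq2, used here in 1 alternative with limma. Whether read pairs were counted once, and the gene annotation, are not given in the sources used here, and counting intervals (exact Clopper-Pearson, 95%, with 0.5 counts added to the ratios) cover counting error only. Symbols with a total of 0 (383) were left out.

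The comparison of conditions used edgeR 4.0.16 in R 4.3.3 (TMM, quasi-likelihood test, Benjamini-Hochberg adjustment), without a cell line term. SE is the absolute log2 difference divided by the square root of F. The cell line pairs the libraries (correlation of deviations 0.342 across 12162 genes, which are not independent), and the common dispersion was 0.140 without and 0.0712 with that block. The blocked fit of 4 libraries leaves few residual degrees of freedom, so that its *p* values rest largely on dispersion shared across genes. Smaller *p* values there are therefore not independent evidence. Alternatives used DESeq2 1.42.0, limma 3.58.1, other scalings and filters, and each library left out. The fits were tested on simulated data. The members and lists were chosen with earlier results of these data known. From each list, the 4 genes of smallest adjusted *p* value per direction, and the most abundant gene if it did not pass, were named. Of these, 2 are not reported here. *HFE*, *TFR2*, *SLC39A8*, *LCN2*, *UROS*, *SMARCB1* and further cell type markers were named after their values were seen.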

Additional observations from a re-analysis of the deposited data

Results flagged for a closer look

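After TMM normalization, *TFRC* went in opposite directions in the cell lines. The log2 ratio of treated over untreated levels was -0.324 in BT-16 cells and 0.142 in CHLA-266 cells. The difference was not tested, since each cell line had 1 library per condition. With library totals the log2 ratios were -0.03 and 0.31. Under upper-quartile normalization both ratios were positive, so that the opposite direction depended on the scaling.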

How the results depend on the processing

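Of 128 refits of the members' log2 differences, 104 kept direction and side of the threshold, 11 fell short of it, 5 newly passed it and 8 turned sign, and the cause of these changes was not tested. In the fit with the cell line as a replicate block (paired libraries), 2 members were upregulated and 4 downregulated, and *IREB2* was the only member whose call changed (adjusted *p* = 0.0187 in edgeR). Upper-quartile normalization left 1895 genes and 1 member downregulated and turned the log2 difference of *TFRC* to 0.27, of *ACO1* to 0.20, of *SLC39A14* to 0.13 and of *CDC42BPA* to 0.10. Under it, 2 genes of iron transport, 5 of iron-sulfur cluster assembly, 3 of selenoprotein synthesis and 0 other mRNAs with an IRE were downregulated, and 8 of the heme list were upregulated. Library totals gave 0.15 for *TFRC*, 0.0807 for *ACO1* (BT-16 alone 0.11, CHLA-266 alone 0.0454) and 0.0025 for *SLC39A14*, with 5 members higher in both cell lines, 1 member that differed between the cell lines, 4 selenoprotein genes and 0 other mRNAs with an IRE downregulated. Genes of at least 10 counts in every library gave 0.11 for *TFRC* and 0.0344 for *ACO1*, with 5 genes of iron transport upregulated and 4 selenoprotein genes and 0 other mRNAs with an IRE downregulated. *SLC40A1* was not tested there. The same holds for *TF*, *SLC39A8*, *SCARA5* and *LCN2*, which were upregulated in the fit of all genes, so that their calls could not recur.

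Leaving out 1 library in turn leaves a condition with 1 library, assumed to vary like the others, and gave 1 to 3 members upregulated and 1 to 3 downregulated. The log2 difference then ran from -0.10 to 0.36 for *NCOA4*, from -0.32 to 0.15 for *TFRC* and from -0.46 to 0.0018 for *SLC39A14*. Upregulated genes of iron transport numbered 5 to 6 and of selenoprotein synthesis 0 to 1, and downregulated genes of iron-sulfur cluster assembly 7 to 11, of selenoprotein synthesis 3 to 7 and of other mRNAs with an IRE 0 to 1. The difference between the cell lines was not refitted in this way, since 3 libraries leave no residual degrees of freedom. With 2 libraries per condition, a difference that did not pass is not shown to be absent.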

Other observations

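The genes whose levels over the 4 libraries were most like those of the most clearly changed members were sought among 8924 genes with a mean of at least 10 CPM, by the Euclidean distance of log2 CPM centred per gene. Nearest to *FTL* were *UBL3* (distance 0.117), *MARK1* (0.139) and *ZSWIM8* (0.180), with log2 differences of 1.50, 1.52 and 1.51 beside 1.43 for *FTL*. Nearest to *STEAP3* were *RAB15* (0.0286), *HACD2* (0.0299) and *ZNF43* (0.0406), with log2 differences of -1.25, -1.26 and -1.25 beside -1.25 for *STEAP3*. With 4 libraries, such likeness is a description only.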
